A study of Mus musculus with 20 samples.

Results

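The circadian clock genes Arntl, Npas2, Per1, Per2, Per3, Cry1, Nr1d1, Nr1d2, Dbp and Bhlhe40 were followed in the adipocyte translatome of mice that were lean, obese or had lost weight. The members were named by symbol and found in the count table by their Ensembl identifiers, and all 10 were present among its 46078 genes and among the 21464 genes with enough counts to be tested. TRAP–seq reads the mRNA on tagged ribosomes of 1 cell type, here from epididymal adipose tissue (epiAT).

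All 20 mice were male AdipoERCre x NuTRAP mice, which carry a tamoxifen-inducible Cre under the promoter of the adipocyte gene Adipoq, and in which Cre switches on a ribosomal protein with a GFP tag. Every mouse, controls included, had received tamoxifen by gavage before the diets began. In the short arm, C mice ate low-fat chow until 18 weeks of age and H mice ate a high-fat diet (HFD) for 12 weeks until the same age. CC_s and HC mice were 26 weeks old and had eaten standard chow for a last 8 weeks, HC mice after 12 weeks of HFD and CC_s mice after low-fat chow, with 3 mice in each of these 4 groups. In the long arm, CC_l and HH mice were 31 weeks old and HH mice had eaten HFD for 25 weeks, whereas CCC and HHC mice were 39 weeks old after a last 8 weeks of standard chow, HHC mice after 25 weeks of HFD, with 2 mice in each group. The library labels in the counts begin differently in each arm, and what that marks is not given in the sources used here. Each comparison of diets therefore stayed inside one arm and one age. The mice lived under a light and dark cycle, and the hour at which the tissue was taken is not given in the sources used here.

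The clock of a cell is a loop of transcription factors. Arntl (BMAL1) pairs with CLOCK or with its relative NPAS2 and switches on genes through E-box sequences, and the Per and Cry proteins that are made as a result repress this pair. Nr1d1 and Nr1d2 (REV-ERBα and REV-ERBβ) repress Arntl through elements of their own, Dbp drives output genes through D-boxes, and Bhlhe40 (DEC1) is a repressor that competes for E-boxes. In adipose tissue, as in other organs, Arntl is highest at the opposite time of day from Dbp, Nr1d1, Nr1d2 and Per3. The difference between them in a single snapshot thus varies with the time of day. By itself it cannot tell the rising from the falling part of the cycle, or a shift in time from a change in level.

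Promoter sequences from RefSeq (GRCm38.p6, 250 bases before to 50 after a transcript start) were found for 8 of the 10 members, in 10 windows, and not for Per2 and Bhlhe40. The windows of Per3, Cry1, Nr1d1 and Arntl are shown because each holds a letter pattern of 1 of the limbs of the loop, 5′ to 3′ on the strand of the gene, with the matches in capitals.

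Per3, chr4:151044616-151044915, minus strand, D-boxes: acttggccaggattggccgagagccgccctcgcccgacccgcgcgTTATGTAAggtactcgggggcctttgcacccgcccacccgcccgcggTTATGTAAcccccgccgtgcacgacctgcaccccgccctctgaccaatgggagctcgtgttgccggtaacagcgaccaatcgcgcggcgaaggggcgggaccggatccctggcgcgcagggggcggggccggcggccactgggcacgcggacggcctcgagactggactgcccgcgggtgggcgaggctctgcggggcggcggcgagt
Cry1, chr10:85185005-85185304, minus strand, E-box and E′-box: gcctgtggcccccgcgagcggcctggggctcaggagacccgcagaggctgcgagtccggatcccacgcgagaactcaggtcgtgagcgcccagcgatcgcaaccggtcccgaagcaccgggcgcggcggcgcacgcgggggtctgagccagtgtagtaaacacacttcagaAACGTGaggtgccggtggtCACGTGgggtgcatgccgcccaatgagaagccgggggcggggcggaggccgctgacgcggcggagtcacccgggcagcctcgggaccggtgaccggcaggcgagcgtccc
Nr1d1, chr11:98775328-98775627, minus strand, E′-box: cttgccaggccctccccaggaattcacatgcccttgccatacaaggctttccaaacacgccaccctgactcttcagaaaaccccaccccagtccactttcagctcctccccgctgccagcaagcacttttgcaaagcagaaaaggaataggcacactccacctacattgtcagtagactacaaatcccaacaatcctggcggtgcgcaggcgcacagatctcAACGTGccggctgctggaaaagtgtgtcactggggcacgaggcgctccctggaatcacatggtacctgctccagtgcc
Arntl, chr7:113207261-113207560, plus strand, REV-ERB element: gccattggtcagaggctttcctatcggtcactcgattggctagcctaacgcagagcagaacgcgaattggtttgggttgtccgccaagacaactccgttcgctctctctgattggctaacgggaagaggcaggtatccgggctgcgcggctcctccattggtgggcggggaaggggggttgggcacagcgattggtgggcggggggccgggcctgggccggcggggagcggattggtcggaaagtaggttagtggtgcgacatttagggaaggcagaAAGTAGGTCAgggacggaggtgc

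The Per3 window held D-boxes (TTATGTAA or TTACGTAA) that begin 205 and 158 bases before the start, a pattern found in 1.06% of all 32851 RefSeq windows. In the Cry1 window an E′-box (CACGTT) began 79 and an E-box (CACGTG) 60 bases before the start, and the Nr1d1 window had an E′-box 28 bases before it. The first of the Per1 windows, not shown, held an E-box 166 bases before its start. Of all windows, 7.15% held an E-box and 4.68% an E′-box. One of the Arntl windows held a REV-ERB element (AANT followed by AGGTCA or GGGTCA) 28 bases after the start, as 0.435% of all windows did. The windows of Npas2, Nr1d2 and Dbp held none of these letters. Both strands were searched, and a match is a description of the letters and not a binding site.

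Depth ranged from 10710277 to 36738954 counts on genes per mouse, and levels are given as CPM, the counts of a gene scaled to a common library size after TMM normalization. All 10 adipocyte markers had counts in every library, with summed CPM of 19258 to 133834. The sum was 29574 to 133834 in C, 32036 to 57894 in H, 83681 to 117402 in CC_s and 19258 to 82226 in HC. In the long arm it was 62284 to 66716 in CC_l and 28657 to 33817 in HH. It was 35128 to 75509 in CCC and 52543 to 86489 in HHC. The mouse with the highest sum had the most Bhlhe40 of its group in C, H, CC_l and CCC. In CC_s, HC, HH and HHC it did not. Macrophage markers summed to 267 to 4740 CPM in the same libraries. In such bulk samples fewer cells of a type and less RNA per cell cannot be told apart. RNA that stays in the nucleus (Malat1, Neat1, Meg3, Kcnq1ot1 and Snhg11) set 4 libraries apart. Its summed CPM was 20450 in HC replicate 3, 28469 in CCC replicate 2, 30494 in C replicate 1 and 37922 in C replicate 2. The other libraries had 2810 to 12408 CPM of it. Spermatid genes summed to 544 CPM in HC replicate 3 and 3533 CPM in CC_l replicate 1, against at most 129 CPM elsewhere. Epididymal epithelium genes summed to 1818 CPM in C replicate 1 and to 306, 838 and 138 CPM in the H mice. HH replicate 1 had 166 CPM of them and HC replicate 2 had 105, against at most 26.1 CPM elsewhere.

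Per kilobase of exon, the median over the 20 mice was highest for Nr1d2 at 14.6 and Per3 at 12.9 CPM per kb. Bhlhe40 at 7.02 and Per1 at 6.82 came next, then Cry1 at 5.01, Per2 at 4.25, Nr1d1 at 2.73 and Dbp at 1.72 CPM per kb. Of the members, the activators Arntl and Npas2 were lowest, at 0.778 and 0.114 CPM per kb. Their partner Clock, not a member, had group means of 4.11 to 6.96 CPM per kb. Parts of 4 members are shared with a gene on the other strand, and the strand setting of the counting is not given in the sources used here. These are 539 bases of Dbp exons with Sphk2, 263 bases of Nr1d1 with Thra, 118 bases of Bhlhe40 with 0610040F04Rik and 33 bases of Arntl with Gm45355, so that these levels are uncertain to that extent.

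A member was called where its nominal p was under 0.01 and its log2 fold change at least 1 in size, by edgeR's quasi-likelihood test on all genes. In H against C, 4 of 10 were called, all lower (Bhlhe40, Per3, Per2 and Nr1d2), where 6.49% of all tested genes were called, 3.57% higher and 2.92% lower. Of these, 2 also had an adjusted p under 0.05 (2.12% of all genes), and at a nominal p under 0.05 the count stayed at 4 (17.1% of all genes). The groups did not overlap for 5 members, 4 lower and 1 higher, as for 25.1% of all genes.

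After WL in the short arm (HC against CC_s), Bhlhe40 alone was called, 1 of 10 members, where 1.74% of all genes were, 1.57% higher and 0.172% lower. For 2 members the groups did not overlap, both lower (13.8% of all genes). In HH against CC_l, 0 members were called, where 6.79% of all genes were, 4.92% higher and 1.88% lower, and 2.07% at an adjusted p under 0.05. DESeq2 and the likelihood ratio test also called 0, and 2 members had a nominal p under 0.05 (17.4% of all genes), Nr1d1 and Nr1d2. With 2 mice a side, groups did not overlap for 7 members, 4 lower and 3 higher, as for 55.3% of all genes.

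In HHC against CCC, Per2 alone was called, where 3.12% of all genes were, 0.447% higher and 2.67% lower. Groups did not overlap for 7 members, 5 lower and 2 higher (28.8% of all genes). The median log2 fold change of the 10 members was −0.48 in H, −0.13 in HC, 0.04 in HH and −0.56 in HHC, beside −0.15, 0.27, −0.23 and −0.06 over all genes.

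**Figure D1:**
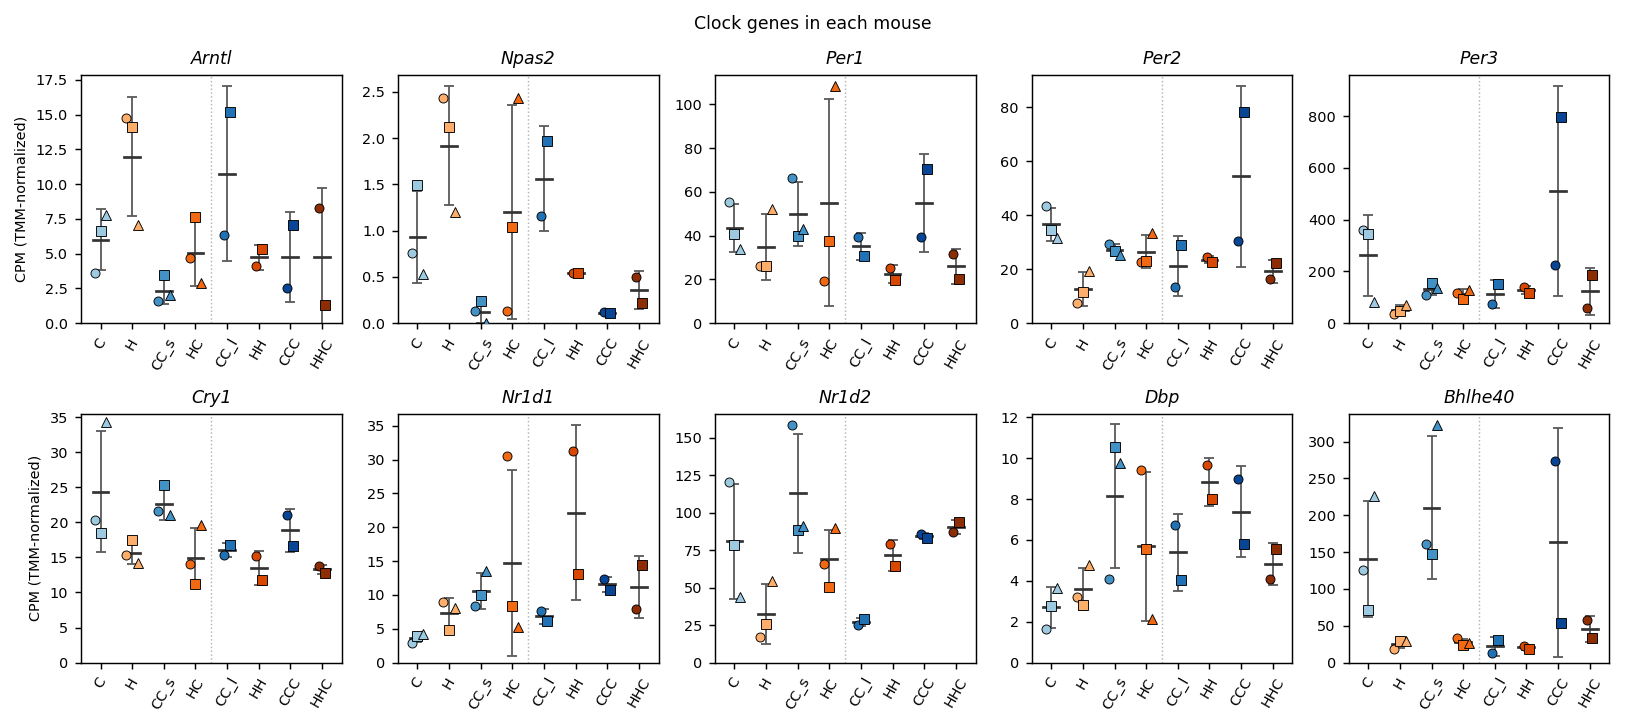
TMM-normalized CPM (y axis, linear, from 0) of the 10 clock genes in each mouse, by group (x axis), with circles, squares and triangles for replicates 1, 2 and 3, wide lines for group means and bars for ± SD (not drawn below 0). Blue marks chow groups and orange groups with an HFD history, with the short arm left of the dotted line. Over both arms and all ages, which no test compared, all 10 mice with an HFD history lie between 18.3 and 57.8 CPM for Bhlhe40. All chow mice of the short arm and CCC replicate 1 lie above them. Both CC_l mice (13.0 and 31.1 CPM) and CCC replicate 2 (53.6 CPM) do not.

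Bhlhe40 (ENSMUSG00000030103, chromosome 6, 108660629 to 108666925, plus strand, mm10) was lower in H than in C, and after weight loss (WL) it was also lower in HC than in CC_s. Its CPM was 126, 71.0 and 226 in the C mice and 18.3, 28.7 and 29.3 in the H mice. After WL, the CC_s mice had 161, 148 and 322 CPM and the HC mice 33.0, 24.1 and 27.2. In both pairs every HFD-history mouse was below every chow mouse.

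The log2 fold change of Bhlhe40 was −2.47 ± 0.57 (SE, n = 3 per group) in H against C, a 5.54-fold difference, with an adjusted p of 0.0320 (edgeR's quasi-likelihood test, Benjamini-Hochberg over all tested genes). In HC against CC_s it was −2.90 ± 0.58, a 7.48-fold difference, with a nominal p of 0.000100, but its adjusted p was 0.344, and no gene of the 21464 reached an adjusted p of 0.05 in that comparison. Over all alternatives the adjusted p ranged from 1.50e-05 to 0.155 in H and from 2.57e-07 to 0.882 in HC, and the 20 fits that each left out 1 mouse kept both log2 fold changes past the cut-offs of nominal p under 0.01 and 1 on the log2 scale. The difference between both effects was 0.43 (95% interval −1.17 to 2.04, adjusted p 0.913).

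In the long arm Bhlhe40 was as low in the CC_l chow mice as in the HH mice. The CC_l mice had 13.0 and 31.1 CPM and the HH mice 23.1 and 18.6, and the log2 fold change was −0.08 (95% interval −1.48 to 1.32). The CCC mice had 273 and 53.6 CPM and the HHC mice 57.8 and 33.1. Those groups overlapped, the log2 fold change was −1.85 ± 0.68 with a nominal p of 0.0146, and without CCC replicate 1 it was −0.24. It was called with nuclear-retained RNA as a covariate (−1.91, nominal p 0.00668, adjusted p 0.244 by edgeR) and without the 4 libraries rich in that RNA (−2.51, nominal p 0.000359, adjusted p 0.740), a fit that leaves CCC replicate 1 as the lone CCC mouse. By group mean, the order was HH at 20.8, CC_l at 22.0, H at 25.4, HC at 28.1 and HHC at 45.4 CPM, then C at 141, CCC at 163 and CC_s at 210 CPM. In that order only HC and HHC, and HHC and C, were neighbours whose ranges did not overlap, and HC and HHC parted by less than 1 CPM.

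Among the Per genes, whose proteins repress the Arntl complex, Per3 and Per2 were lower in H than in C and Per1 did not pass the cut-offs. Per3 (ENSMUSG00000028957, chromosome 4, 151003652 to 151044665) had 360, 346 and 81.7 CPM in the C mice and 36.5, 46.8 and 72.1 CPM in the H mice. The groups did not overlap, but C replicate 3 was nearer to the H mice than to the other C mice. The log2 fold change was −2.34 ± 0.59 (adjusted p 0.0491 by edgeR's quasi-likelihood test, range over the alternatives 9.40e-05 to 0.603).

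The C mice with high Per3 were those with high nuclear-retained RNA, and C replicate 3 had 4909 CPM of it, beside 4508 to 5547 CPM in the H mice. Without the 4 libraries rich in such RNA, which left 1 C mouse whose spread was taken to be like that of the other groups, the log2 fold change of Per3 was −0.54 (adjusted p 0.603). With the nuclear-retained RNA as a covariate it was −1.53 (adjusted p 0.127). In the same fits Bhlhe40 was at −3.04 (adjusted p 0.0116) and at −2.86 (adjusted p 0.00525).

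Per2 was at 43.6, 34.6 and 31.7 CPM in the C mice and at 7.34, 11.5 and 19.5 in the H mice, with no overlap. Its log2 fold change was −1.52 ± 0.41 (nominal p 0.00162, adjusted p 0.0624 by edgeR's quasi-likelihood test), −1.20 without the 4 libraries and −1.11 with the covariate, both of which missed the nominal cut-off. Without H replicate 1 it was −1.24 and the call was lost as well. Per1, which also answers to hormones and other acute signals, had 55.5, 41.0 and 33.8 CPM in C and 26.1, 26.3 and 52.2 CPM in H, overlapping, with a log2 fold change of −0.32 (95% interval −1.36 to 0.72) that turned to 0.40 with the covariate.

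After WL in the short arm the Per genes did not pass the cut-offs. Per3 was at 108, 155 and 135 CPM in CC_s and 118, 94.7 and 129 CPM in HC, a log2 fold change of −0.22 (95% interval −1.40 to 0.97). Per2 was at 29.5, 26.7 and 25.3 CPM in CC_s and 22.8, 23.2 and 33.6 CPM in HC (log2 fold change −0.04, 95% interval −0.88 to 0.80). Per1 was at 66.5, 39.9 and 43.1 CPM in CC_s and 19.2, 37.6 and 109 CPM in HC, where replicate 3, rich in nuclear-retained RNA, stood apart. The difference between the H and the HC effect was −2.12 for Per3 (nominal p 0.0170) and −1.48 for Per2 (nominal p 0.0178), with adjusted p of 0.351 and 0.353 by the interaction test in edgeR. Both differences take in the H effects given above, which were smaller without the libraries rich in nuclear-retained RNA.

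In the long arm, HH mice had 140 and 118 CPM of Per3 and the CC_l mice 74.3 and 150, and Per2 was at 24.5 and 22.6 CPM in HH and 13.4 and 28.9 in CC_l. Both pairs overlapped. Per1 was at 25.4 and 19.6 CPM in HH against 39.6 and 30.8 in CC_l, and at 31.5 and 20.4 CPM in HHC against 39.2 and 70.6 in CCC, with no overlap and past no cut-off. Per3 was at 58.7 and 187 CPM in HHC against 224 and 797 in CCC, where replicate 2, rich in nuclear-retained RNA, was the highest of all 20 mice. Its log2 fold change in HHC was −2.06 ± 0.72 (nominal p 0.0105) and −0.87 without CCC replicate 2. Per2 was called lower in HHC, with 16.3 and 22.3 CPM against 30.6 and 78.2 in CCC (log2 fold change −1.50 ± 0.50, nominal p 0.00794, adjusted p 0.299 by edgeR's quasi-likelihood test), and was at −0.67 and not called without CCC replicate 2. With the covariate it was at −1.11 (nominal p 0.0289) and without the 4 libraries at −0.59 (nominal p 0.267), again not called.

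Cry1, the other partner of the repressor complex, varied least. Its residual SD around the group means was 0.29 on the log2 scale, at percentile 3.84 of all tested genes. It was at 20.4, 18.5 and 34.3 CPM in C, 15.4, 17.4 and 14.2 in H, 21.6, 25.4 and 21.0 in CC_s and 14.1, 11.2 and 19.6 in HC. In these pairs each HFD-history mouse was below each chow mouse, with log2 fold changes of −0.64 ± 0.31 (nominal p 0.0526) and −0.60 ± 0.31 (nominal p 0.0669) that did not pass the cut-offs. Without the 4 libraries rich in nuclear-retained RNA the values were −1.02 (nominal p 0.00686), which was called, and −0.90 (nominal p 0.00554), which was under 1 in size and not called. The long arm gave −0.25 (15.4 and 16.8 CPM in CC_l, 15.2 and 11.8 in HH) and −0.51 (21.0 and 16.7 CPM in CCC, 13.7 and 12.8 in HHC), again with no overlap and past no cut-off.

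For the activators Arntl and Npas2 the spread between mice was the widest among the members, and no comparison passed the cut-offs. Arntl had 3.59, 6.65 and 7.79 CPM in C and 14.8, 14.1 and 7.05 CPM in H, overlapping in 1 H mouse, and the log2 fold change was 0.99 ± 0.65 (nominal p 0.144). In CC_s it had 1.59, 3.44 and 2.03 CPM and in HC 4.67, 7.67 and 2.88 CPM (log2 fold change 1.10 ± 0.66, nominal p 0.112). In HH, with 4.10 and 5.36 CPM against 6.34 and 15.2 in CC_l, the sign was the opposite, at −1.18 (95% interval −2.87 to 0.50). HHC, with 8.30 and 1.29 CPM against 2.51 and 7.08 in CCC, had a value of −0.01, whose sign changed with the scaling.

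Npas2 was near the limit of these libraries. It had 0.762, 1.49 and 0.537 CPM in C, 2.43, 2.12 and 1.20 in H, 1.16 and 1.96 in CC_l and 0.547 and 0.545 in HH. The CC_s mice had 2, 6 and 0 counts, 0.132 and 0.246 CPM and, for the count of 0, at most 0.190 CPM as 3 counts would give, whereas the HC mice had 0.137, 1.04 and 2.43 CPM. Both CCC mice had 2 counts, under the level of 3 counts, and no fold is given for HHC, at 0.503 and 0.215 CPM. In HC against CC_s the nominal p was 0.0121, and the fitted fold change rests on those few counts. Levels were lower in CC_s than in C, with no overlap, and the nominal p was 0.0227.

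The REV-ERB genes had values of opposite sign in H. Nr1d2 had 120, 78.7 and 43.8 CPM in C and 16.8, 25.8 and 54.8 CPM in H, overlapping in 1 H mouse (log2 fold change −1.32 ± 0.43, nominal p 0.00709, adjusted p 0.124 by edgeR's quasi-likelihood test). Its call was lost without C replicate 1, C replicate 2, H replicate 1 or H replicate 2, and without the 4 libraries rich in nuclear-retained RNA the value was −0.32. In CC_s it had 159, 88.6 and 91.4 CPM and in HC 65.9, 50.4 and 90.0 (log2 fold change −0.71, 95% interval −1.61 to 0.18).

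In the long arm, by contrast, HH mice had 79.0 and 64.3 CPM of Nr1d2, both above the CC_l mice at 25.3 and 28.9 (log2 fold change 1.40 ± 0.53, nominal p 0.0171). The H effect minus the HH effect was −2.72 ± 0.69 (nominal p 0.000971), but with an adjusted p of 0.848 in the interaction test of edgeR it did not pass. HHC and CCC were at 87.5 and 94.0 against 85.7 and 82.9 CPM (0.11, 95% interval −0.99 to 1.20).

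Nr1d1 had 2.94, 3.87 and 4.16 CPM in C and 9.01, 4.81 and 8.11 in H, every H mouse above every C mouse (log2 fold change 1.00 ± 0.55, nominal p 0.0864, 0.21 with the covariate). HC replicate 1 stood apart at 30.5 CPM from 8.43 and 5.25 in the other HC mice, with 8.34, 9.99 and 13.5 in CC_s. HH mice had 31.3 and 13.0 CPM and the CC_l mice 7.62 and 6.09 (1.69 ± 0.68, nominal p 0.0229). HHC was at 7.88 and 14.4 against 12.4 and 10.8 CPM in CCC.

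Dbp, the output activator, was low throughout and did not pass the cut-offs in any comparison. It had 1.63, 2.78 and 3.67 CPM in C, 3.19, 2.80 and 4.75 in H, 4.10, 10.6 and 9.76 in CC_s and 9.41, 5.54 and 2.13 in HC. Long-arm levels were 6.71 and 4.06 in CC_l, 9.67 and 7.99 in HH, 8.96 and 5.82 in CCC and 4.11 and 5.55 in HHC. Its log2 fold changes in the 4 diet comparisons lay between −0.61 and 0.71.

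For the difference between effects, 0 members passed an adjusted p of 0.05 in any of the 4 interaction tests of edgeR, and DESeq2 and the likelihood ratio test also gave 0. At a nominal p under 0.05 there were 2 for H against HC (11.8% of all genes), 2 for HH against HHC (15.5%), 5 for H against HH (5.79%) and 1 for HC against HHC (11.8%). The 5 were Arntl, Per2, Per3, Nr1d2 and Bhlhe40.

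**Figure D2:**
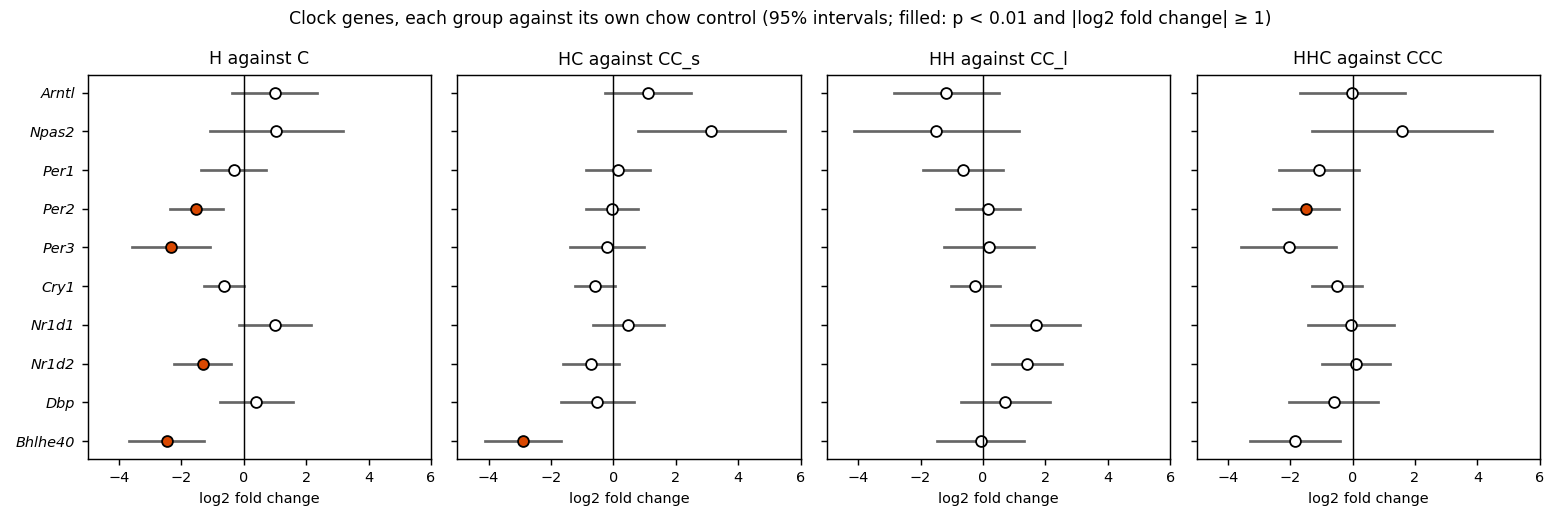
Log2 fold changes (x axis) of the 10 clock genes (y axis) in each of the 4 diet comparisons, with 95% intervals from edgeR and filled points for genes past nominal p under 0.01 and 1 on the log2 scale. Bhlhe40 lies at −2.47 and −2.90 in the short arm and at −0.08 in HH, and Npas2 in HC and HHC rests on 0 to 6 counts in the chow mice.

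Markers of other cell types moved with these comparisons. Of 14 macrophage markers, 8 were called higher in H, 7 in HC, 12 in HH and 0 in HHC, where 1 was lower. Their summed CPM was 292 to 505 in C, 724 to 3628 in H, 273 to 360 in CC_s and 607 to 1627 in HC. In the long arm it was 267 to 486 in CC_l, 3626 to 4740 in HH, 880 to 1087 in CCC and 813 to 1389 in HHC. All 14 had counts in every library. Of 6 endothelial markers, 4 were called higher in H and 6 in HH, and 2 lower in HHC. Of 8 adipocyte progenitor markers, 2 were called higher in H, 1 in HC, 6 in HH and 2 in CCC against CC_l. Of 6 mesothelial markers, 2 were called lower in H, 1 in HHC and 2 in CC_s against C, and 2 higher in CCC against CC_l. Of 8 lymphocyte markers, 1 was called higher in HC and 2 lower in CC_s against C. Of 6 epididymal epithelium markers, 1 was called higher in H and 1 lower in CC_s against C. The median log2 fold change of the 10 adipocyte markers was −0.51 in H, −0.56 in HC, −1.40 in HH and 0.32 in HHC. The part of any of these cells in the differences of the clock genes was not tested.

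Lean mice of different ages were compared as well, since they carry no HFD history. CC_s and CCC mice were older than C and CC_l mice and had eaten another chow product for their last 8 weeks, so age, chow and the hour of sampling cannot be told apart, and these comparisons share their chow mice with the diet comparisons above. In CC_s against C, 0 of 10 members were called by edgeR's quasi-likelihood test (2.45% of all genes called) and 3 were at a nominal p under 0.05 (11.2% of all genes). DESeq2 called 2 members and the likelihood ratio test 3. These tests called more of all 21464 genes as well, 1394 and 1140, beside 525 by the quasi-likelihood test. The log2 fold change was 1.59 ± 0.56 for Dbp and 1.53 ± 0.55 for Nr1d1, each with no overlap between the groups (nominal p 0.0116 and 0.0130). In CCC against CC_l, 3 members were called, all higher (2.66% of all genes called, 0.755% higher). They were Bhlhe40 at 2.89 ± 0.71 (nominal p 0.000752, adjusted p 0.311), Per3 at 2.19 ± 0.72 and Nr1d2 at 1.64 ± 0.53. The count was 0 without CC_l replicate 1, the mouse with the most spermatid RNA, and 1 without CCC replicate 2. Called or not, 6 of 10 members had groups that did not overlap here (35% of all genes, 1.91% called lower) and 5 of 10 in CC_s against C (12.7% of all genes, 1.85% called lower and 0.592% higher).

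Of 17 other clock and clock output genes, 6 were called in H against C, all lower, where 2.92% of all tested genes were called lower, and 4 of them passed an adjusted p of 0.05 in edgeR (2.12% of all genes). Tef and Hlf, relatives of Dbp that bind D-boxes, were at −1.91 (adjusted p 0.00996) and −2.48 (adjusted p 0.0192). Usp2, a deubiquitinase, had 72.4, 65.4 and 146 CPM in C and 15.5, 12.4 and 30.6 CPM in H, with no overlap. It was at −2.28 (adjusted p 0.0167), and Nampt, an enzyme of NAD salvage, at −1.57 (adjusted p 0.0269).

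Bhlhe41 (DEC2), the close relative of Bhlhe40, had 52.2, 37.7 and 153 CPM in C and 15.3, 14.1 and 30.9 CPM in H (log2 fold change −2.01, adjusted p 0.0505 by edgeR). After WL it was at 55.7, 86.8 and 131 CPM in CC_s and 67.4, 50.6 and 34.9 CPM in HC, overlapping, with a log2 fold change of −0.84 (nominal p 0.111). Cry2 was at −1.02 in H (adjusted p 0.0999). Clock itself, the partner of Arntl, was at 95.7, 119 and 66.4 CPM in C and 94.8, 99.1 and 92.6 in H, a log2 fold change of 0.03.

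In HH against CC_l, 1 of the 17 was called, a share near the 6.79% of all genes called there. This was Usp2, at −2.67 (adjusted p 0.0281 by edgeR). It had 172 and 51.7 CPM in CC_l and 17.7 and 17.4 CPM in HH. CC_l replicate 1, at 172 CPM, was the library with the most spermatid RNA, and without both libraries that held such RNA Usp2 was at −1.55 and no longer called. Arntl2, a relative of Arntl, was at 1.96 and the D-box repressor Nfil3 at −1.42, and neither passed. After WL, 0 of the 17 were called by edgeR's quasi-likelihood test in HC, with 2 at a nominal p under 0.05 (Tef and Nampt, against 8.69% of all genes), and 0 in HHC, with 1 (Noct, against 10.7% of all genes). DESeq2 and the likelihood ratio test also called 0 in both. The largest values in HC were −1.03 for Ciart, a repressor of the Arntl complex, −0.93 for Nampt and 0.88 for the cell cycle kinase Wee1, and in HHC −1.20 for Noct, −1.07 for Wee1 and −0.95 for Nfil3. The median log2 fold change of the 17 was −0.79 in H, −0.37 in HC, −0.43 in HH and −0.43 in HHC, beside the medians of all genes given above.

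**Figure D3:**
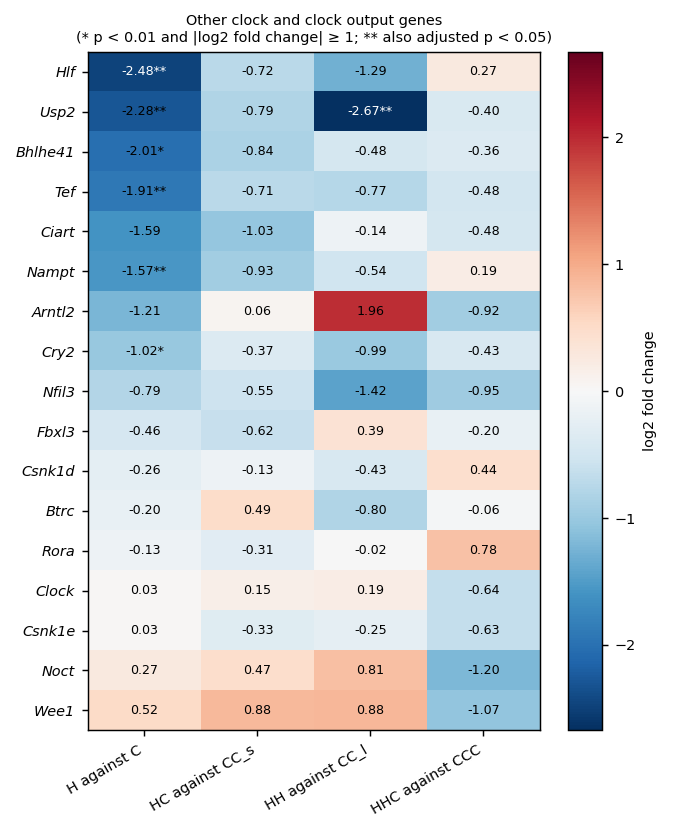
Log2 fold changes of 17 other clock and clock output genes (rows) in the 4 diet comparisons (columns), coloured on a scale centred on 0, with 1 asterisk for genes past nominal p under 0.01 and 1 on the log2 scale and 2 asterisks for those that also had an adjusted p under 0.05. Hlf is lowest in H at −2.48 and Usp2 in HH at −2.67, and no gene is marked in HC or HHC.

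Whether the mice of a group looked alike in the loop was described with a phase index. It is the mean log2 CPM of Dbp, Nr1d1, Nr1d2 and Per3 minus that of Arntl, Npas2 and Cry1. The index carries no test because it is a score over the members. Mice with the same index need not be at the same point of the loop. The C mice had an index of 2.44, 2.02 and 1.48, and the H mice 0.483, 0.483 and 1.97. In CC_s the index was 3.79, 3.48 and 4.48, and in HC 3.96, 2.24 and 1.87. H replicate 3 and HC replicate 1 lay within the range of their controls, and the other 2 mice of each group lay below it, H replicates 1 and 2 at nearly the same value.

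In the long arm, the CC_l mice were at 1.83 and 1.18 and the HH mice at 3.64 and 3.11, so that HH lay above its controls. The CCC mice were at 4.08 and 3.97 and the HHC mice at 2.31 and 4.29. Within a group, the mice spanned 0.112 in CCC, 0.521 in HH, 0.652 in CC_l, 0.963 in C, 0.998 in CC_s, 1.48 in H, 1.98 in HHC and 2.09 in HC. The whole series spanned 0.483 to 4.48. Log2 values of Npas2 rest on few counts in CC_s and CCC and so depend on the prior count. With a prior count of 0.5 instead of 2, CC_s spanned 1.56 and H 1.51, and CC_s replicate 3 was at 5.16. The part of nuclear-retained RNA in the index was not tested. These spans depended on the genes of the index, since with Dbp and Arntl alone they were 3.02 in HHC, 2.08 in CCC, 1.96 in CC_l, 1.73 in H and 1.46 in HC, and with Per1 and Per2 added H spanned 1.63 and HC 1.28.

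The differences of the group means were −1.0 in H, −1.23 in HC, 1.87 in HH and −0.72 in HHC, with pooled SDs of 0.70, 0.87, 0.42 and 0.99. Among the lean mice, the 5 of C and CC_l were between 1.18 and 2.44 and the 5 of CC_s and CCC between 3.48 and 4.48, with no overlap. With Dbp and Arntl alone, the differences between diets were −0.55, −1.67, 1.79 and −0.25, and the lean mice overlapped, with CC_l replicate 1 at 0.0798 and CCC replicate 2 at −0.279. By that index H replicate 3 was above the C mice at −0.561 and HC replicate 1 below the CC_s mice at 0.996.

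**Figure D4:**
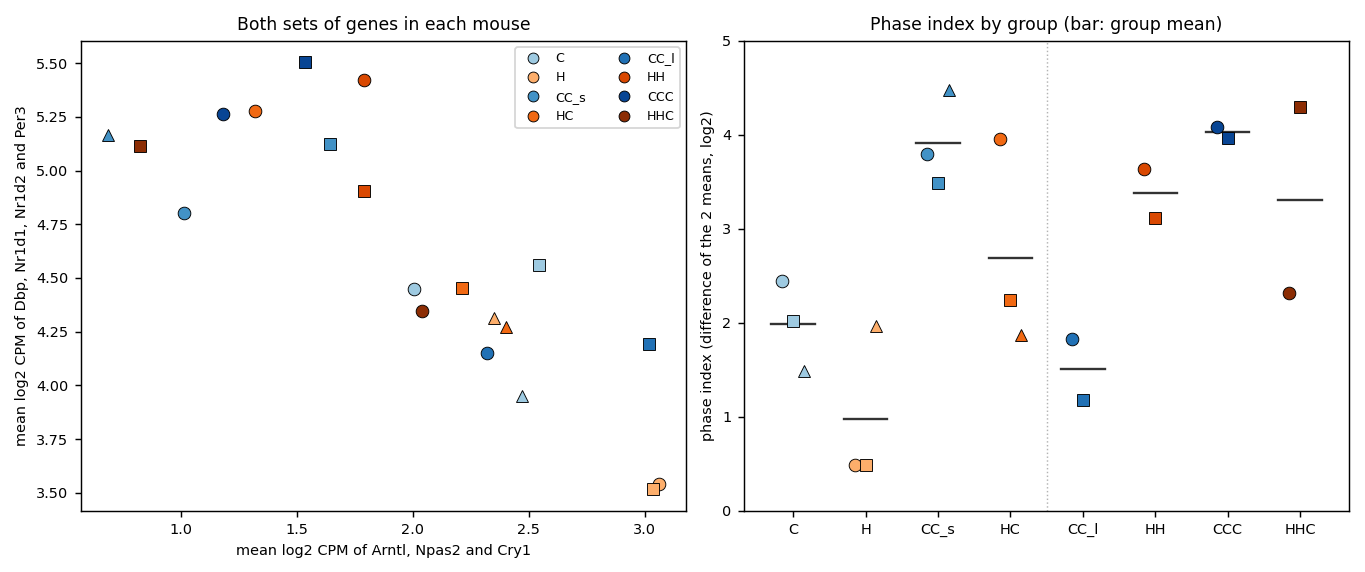
Left, the mean log2 CPM of Dbp, Nr1d1, Nr1d2 and Per3 (y axis) against that of Arntl, Npas2 and Cry1 (x axis), 1 point per mouse, with blue for chow groups and orange for groups with an HFD history. Right, the phase index (difference of both means, log2) by group, with circles, squares and triangles for replicates 1, 2 and 3 and a line for the group mean. H replicates 1 and 2 lie lowest at 0.483 and CC_s replicate 3 highest at 4.48.

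The spread of single members was set beside that of all genes. The residual SD around the group means (12 degrees of freedom) was 0.92 for Npas2, 0.83 for Arntl, 0.78 for Per3, 0.73 for Bhlhe40, 0.67 for Nr1d1, 0.65 for Per1, 0.64 for Dbp, 0.53 for Nr1d2 and 0.50 for Per2 on the log2 scale. The 10 members lay between percentile 3.84 and percentile 54.2 of the tested genes, whose median was 0.86. Single mice carried part of it, since without HC replicate 1 the value was 0.65 for Npas2 and 0.46 for Nr1d1, and without HC replicate 3, at 109 CPM beside 19.2 and 37.6, it was 0.47 for Per1. The percentiles take in genes of all levels. Beside edgeR's trend for genes of the same level, the coefficient of variation between mice was higher for Per3 (0.482 against 0.447), Bhlhe40 (0.466 against 0.423) and Per1 (0.431 against 0.407). It was lower than the trend for the other members, Arntl (0.559 against 0.619) and Npas2 (0.745 against 1.02) included.

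Across the 20 mice, deviations from the group means were correlated between Arntl and each of the 9 other members. Nr1d2 had the strongest relation, with Pearson's r = −0.533 (adjusted permutation p 0.0173) and Spearman's rho = −0.564 (adjusted permutation p 0.0579), and r was −0.662 without the 2 mice farthest in Arntl. Within the short arm (12 mice) r was −0.869 and rho −0.846 (adjusted permutation p 0.0127 and 0.0274), and within the long arm (8 mice) r was −0.174 and rho −0.214. In groups of 2 the deviations of both mice mirror each other, and the permutation test of the long arm could not pass, its smallest nominal p over the 9 pairs being 0.126. Whether the arms differ was not tested. In H, CC_s and HC, the mouse with the most nuclear-retained RNA (5547, 9499 and 20450 CPM) had the highest Nr1d2 and the lowest Arntl of its group. In C the richest mouse, replicate 2 at 37922 CPM, had neither. In each long-arm group the mouse richer in such RNA had the higher Arntl. The part of this RNA in the correlations was not tested. The other 8 members had r between −0.231 and 0.216 and adjusted permutation p of at least 0.884 by both measures. In the short arm Per2 also passed by Pearson's r (−0.740, adjusted permutation p 0.0433) but not by rho (−0.671, adjusted permutation p 0.176).

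Genes outside both clock lists were ranked by Pearson's r of log2 CPM with Arntl and with Bhlhe40 over the 20 mice, which share arm, group and depth, so that r is a description. The patterns most like that of Arntl were those of Dtx4 (0.81), Wdr86 (0.74), Nsl1 (0.74), Lonrf3 (0.73) and Kat2a (0.73), and the most opposite those of Trim23 (−0.78), Zfp763 (−0.72), Zfp367 (−0.71), Gpr152 (−0.70) and Tbc1d15 (−0.68). For Bhlhe40 they were Srsf3 (0.92), Fahd1 (0.91), Tob1 (0.90), Ebf2 (0.88) and Ier3 (0.88), and Fmn1 (−0.85), Disp1 (−0.83), Igsf21 (−0.81), Kif22 (−0.79) and Lpar3 (−0.78).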

How the data were processed

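The authors trimmed the reads with Trim Galore 0.6.6, aligned them to mm10 with HISAT2 2.2.1, counted them on genes with featureCounts (Subread 2.0.1) and deposited raw counts, without normalization. The annotation, strand setting and pair handling of the counting are not given in the sources used here. Of the nonzero counts of a library, 74.4% to 89.2% were even numbers, so halved counts were an alternative. Symbols and positions came from GENCODE vM21 (98.2% of genes).

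Counts of all 20 libraries in 8 groups were fitted with edgeR 4.0.16 in R 4.3.3 (filterByExpr, TMM, quasi-likelihood test, prior of 5.29 degrees of freedom), with the cut-offs of the study (nominal p under 0.01, log2 fold change past 1 in either direction). Log2 CPM used a prior count of 2. Correlations used 100000 two-sided permutations. The members, gene lists and tests were chosen with earlier results of these data known. Genes outside the members were named if they belonged to the list of other clock genes and were called or among the 3 largest values of a comparison (Clock was chosen after its values were seen), or if among the 5 highest or lowest correlations. One gene of that list is not reported here. On simulated counts for H against C (20623 genes), 50 of the 98 tested genes changed 4-fold and 68 of the 96 changed 8-fold were recovered and 0.930% of unchanged genes were called.

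The alternatives were DESeq2 1.42.0, RLE scaling, a likelihood ratio test, no filter, halved counts, the replicate number as a block, only the compared groups, an adjusted p and leaving out each mouse. A covariate of nuclear-retained RNA and leaving out the libraries rich in it or in spermatid RNA were chosen after seeing the data. Replicate numbers were not treated as pairs. In their deviations over all genes, same-numbered mice correlated between −0.277 and 0.192 and other mice between −0.267 and 0.269. Over the members alone these ranges were −0.758 to 0.776 and −0.571 to 0.824. Deviations within groups of 2 or 3 mice cancel each other, so these values cannot show whether equal numbers pair the mice.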

Additional observations from a re-analysis of the deposited data

How the results depend on the processing

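Bhlhe40 was called lower in H and in HC under every alternative that kept the nominal cut-offs, and in HC it missed an adjusted p of 0.05 as reported. The other calls were less firm, and the causes were not tested. Leaving out libraries also changes the size of the groups. Groups of 2 mice and low counts limit what Npas2, Arntl and Dbp can show. Called clock genes in H against C, 4 as reported, were 2 at an adjusted p under 0.05, 2 without the 4 libraries rich in nuclear-retained RNA (Bhlhe40 and Cry1, so that Per2, Per3 and Nr1d2 were lost and Cry1 gained) and 1 with that RNA as a covariate. In HC, 1 as reported, they were 2 with DESeq2, 2 with the likelihood ratio test, 2 with the covariate and 0 at an adjusted p. In HH, 0 as reported, they were 1 without a filter, 1 with only the compared groups and 1 with the covariate. In HHC, 1 as reported, they were 3 with DESeq2, 3 with the likelihood ratio test, 3 without a filter, 2 without the libraries with spermatid RNA, and 0 with RLE scaling, halved counts, the replicate block, only the compared groups or an adjusted p. With the covariate and without the 4 libraries the count in HHC was 1, but the gene was Bhlhe40 and not Per2. In CC_s against C, 0 as reported, they were 2 with DESeq2, 3 with the likelihood ratio test, 1 with only the compared groups and 2 without the spermatid libraries. In CCC against CC_l, 3 as reported, they were 5 with DESeq2, 1 with the replicate block, 1 without the 4 libraries, and 0 with only the compared groups, without the spermatid libraries or at an adjusted p. Leaving out 1 mouse gave 2 to 4 in H, 1 to 2 in HC, 0 to 1 in HH, 0 to 2 in HHC, 0 to 2 in CC_s and 0 to 4 in CCC.

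Other clock genes called were 1 in HC with halved counts, in HH (1 as reported) 2 with DESeq2, 2 with the covariate, 0 with only the compared groups and 0 without the spermatid libraries, and in HHC 1 without the spermatid libraries, and leaving out 1 mouse gave 0 to 1 in HC, 0 to 1 in HH and 0 to 1 in HHC. Members whose effects differed were 1 for H against HC and 2 for H against HH without a filter. In log2 CPM without removing group means, Arntl correlated at 0.659 with Npas2 and −0.287 with Dbp. Leaving out 1 mouse (or the 2 farthest) moved r with Arntl between −0.445 and 0.00829 for Per1, −0.360 and 0.0875 for Per2, −0.493 and 0.0695 for Per3, −0.213 and 0.151 for Cry1, −0.406 and 0.0119 for Nr1d1, −0.662 and −0.470 for Nr1d2 (6 of these lost the call), −0.193 and 0.173 for Dbp, and −0.253 and 0.268 for Bhlhe40. The residual SD moved between 0.649 and 0.961 for Npas2, 0.465 and 0.679 for Per1 and 0.456 and 0.704 for Nr1d1.

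Of 1198 values of single genes under an alternative, 1102 kept direction and call, 31 lost and 25 gained a call and 40 changed sign. Arntl in HHC was 0.13 with RLE scaling, 0.13 with DESeq2, 0.040 without a filter, 0.19 with halved counts, 0.15 with the replicate block, 0.17 with only the compared groups, 0.14 with the covariate and 1.01 without the 4 libraries. Nr1d1 in HHC was 0.072 with RLE scaling, 0.073 with DESeq2, 0.073 with only the compared groups, 0.000365 without a filter and 0.093 with halved counts. Per1 was 0.40 with the covariate and 0.16 without the 4 libraries in H, and in HC −0.048 with the replicate block, −0.11 with the covariate, −0.87 without the 4 libraries and −0.81 without the spermatid libraries. Per2 was 0.081 in HC without a filter and −0.29 in HH without the spermatid libraries, where Per3 was −0.22. Dbp in H was −0.31 with the covariate, and Bhlhe40 in HH was 0.044 without a filter and 0.018 with only the compared groups. Leaving out 1 mouse gave −1.89 to 0.92 for Arntl in HHC, −0.82 to 0.55 for Per1 in HC, −0.25 to 0.061 for Per2 in HC, −0.29 to 0.84 for Per2 in HH, −0.22 to 0.82 for Per3 in HH, −0.63 to 0.87 for Nr1d1 in HC, −0.55 to 0.31 for Nr1d1 in HHC and −0.57 to 0.71 for Bhlhe40 in HH. Npas2 was not tested in HC and HHC with only the compared groups.

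Over all genes, calls ranged from 1032 to 2720 in H (1392 as reported), 204 to 1764 in HC (374), 730 to 3229 in HH (1458) and 218 to 1266 in HHC (669), and from 168 to 2006 in CC_s against C (525) and 158 to 1924 in CCC against CC_l (572). With 1 mouse left out they ranged from 757 to 1816, 160 to 597, 569 to 1794, 138 to 1194, 128 to 2184 and 127 to 1006. In the same order, DESeq2 called 2163, 727, 2309, 1185, 1394 and 1021 genes. The likelihood ratio test called 2092, 972, 2029, 1190, 1140 and 1125. Without a filter, 2492, 1764, 2879, 1266, 2006 and 1924 of 34443 genes were called. Settings that called more members thus often called more of all genes too. The replicate block gave 1032, 204, 1040, 375, 304 and 288. Equal numbers mark no shared litter or day in the labels.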
